A study of Mus musculus with 9 samples.

Results

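The coat of caveolae was followed in HT-22 cells through 9 genes picked by symbol: the caveolin genes Cav1 and Cav2, the cavin genes Cavin1, Cavin2 and Cavin3, the EHD genes Ehd1, Ehd2 and Ehd4, and Pacsin2. All 9 were found among the 29756 entries of the deposited expression table, and all 9 passed the filter on low values, which asked for at least 1 FPKM in at least 3 of the 9 libraries. FPKM, the unit of every level given here, counts sequenced fragments per length of the gene and per size of the library, so levels of different genes can be set side by side. The 9 genes were chosen with these FPKM values known, so their differences are given as a description and carry no test of their own.

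HT-22 is an immortalised mouse hippocampal neuronal line, and mRNA was sequenced from 3 intervention, 3 experimental and 3 control libraries. Hemin (oxidised heme) and PPP8, a micelle, are named in the title of the series. Which cultures were given hemin or PPP8, at what dose and for how long is missing from the labels, so the groups keep their label names. They also do not say that libraries came from separate cultures, and the spread between libraries may be technical.

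Caveolae are small flask-shaped pits of the plasma membrane, rich in cholesterol and most abundant in adipocytes, endothelium, fibroblasts and muscle. Caveolins are hairpin membrane proteins that assemble in the bulb, and cavins form a coat over it from the cytosolic side. EHD ATPases and the F-BAR protein PACSIN2 act at the neck or on nearby membranes, where they shape it and set how readily a caveola leaves the surface. Caveolae flatten under membrane tension and so serve as a reserve of membrane, and in the nervous system they are better known from glia and vessels than from mature neurons.

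Cav1 and Cav2 lie beside each other on chromosome 6 of mm10. Cav2 spans 17281185 to 17289115 and Cav1 spans 17306335 to 17341452, both on the plus strand, and 17219 bases lie between them with no other gene of the table inside. Cavin1 lies on chromosome 11 (100956733 to 100970887, minus strand), Cavin2 on chromosome 1 (51289126 to 51302960, plus) and Cavin3 on chromosome 7 (105480083 to 105482300, minus). Ehd1 lies on chromosome 19 (6276725 to 6300096, plus), Ehd2 on chromosome 7 (15946958 to 15967567, minus), Ehd4 on chromosome 2 (120089175 to 120154606, minus) and Pacsin2 on chromosome 15 (83375607 to 83464606, minus). The predicted gene Gm45667 overlaps Cavin3 on the opposite strand and stayed at 0.31 FPKM or less in every library. Gm5417 overlaps Pacsin2 on the same strand and reached 5.91 FPKM in 1 intervention library. The use of strand in counting is not given, so reads of these overlapping pairs cannot be told apart.

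The 5 promoters printed here belong to genes whose levels in experimental libraries averaged less than 36% of the control level. They are shown because all 5 genes were lower there, though by different amounts. Each runs 5′ to 3′ from 250 bases before to 50 bases after the most upstream RefSeq start in GRCm38.p6, the assembly of mm10. Capitals mark matches to the motifs searched on both strands.
Cav1, chr6:17306085-17306384, plus strand: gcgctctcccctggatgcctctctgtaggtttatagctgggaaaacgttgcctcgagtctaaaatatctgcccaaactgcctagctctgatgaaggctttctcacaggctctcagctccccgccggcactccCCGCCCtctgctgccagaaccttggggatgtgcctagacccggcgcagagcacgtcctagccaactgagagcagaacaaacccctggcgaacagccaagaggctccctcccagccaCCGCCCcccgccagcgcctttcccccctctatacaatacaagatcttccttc
Cav2, chr6:17280935-17281234, plus strand: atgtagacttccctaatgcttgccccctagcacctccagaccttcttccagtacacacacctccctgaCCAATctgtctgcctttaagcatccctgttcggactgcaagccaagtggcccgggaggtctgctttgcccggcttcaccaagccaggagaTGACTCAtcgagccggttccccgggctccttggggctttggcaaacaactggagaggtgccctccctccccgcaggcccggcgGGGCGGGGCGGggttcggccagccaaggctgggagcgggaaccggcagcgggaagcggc
Cavin1, chr11:100970568-100970867, minus strand: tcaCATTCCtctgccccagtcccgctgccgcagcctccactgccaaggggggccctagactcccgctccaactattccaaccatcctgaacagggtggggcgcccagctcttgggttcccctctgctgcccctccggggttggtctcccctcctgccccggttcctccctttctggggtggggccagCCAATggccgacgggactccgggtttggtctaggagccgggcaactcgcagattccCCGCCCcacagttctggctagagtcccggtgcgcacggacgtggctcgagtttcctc
Cavin2, chr1:51288876-51289175, plus strand: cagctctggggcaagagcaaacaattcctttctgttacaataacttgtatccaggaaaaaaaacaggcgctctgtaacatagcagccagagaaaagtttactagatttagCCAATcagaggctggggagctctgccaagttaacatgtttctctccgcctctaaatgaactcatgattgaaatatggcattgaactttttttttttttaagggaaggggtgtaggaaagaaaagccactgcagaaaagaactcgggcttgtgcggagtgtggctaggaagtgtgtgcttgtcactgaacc
Ehd2, chr7:15967486-15967785, minus strand: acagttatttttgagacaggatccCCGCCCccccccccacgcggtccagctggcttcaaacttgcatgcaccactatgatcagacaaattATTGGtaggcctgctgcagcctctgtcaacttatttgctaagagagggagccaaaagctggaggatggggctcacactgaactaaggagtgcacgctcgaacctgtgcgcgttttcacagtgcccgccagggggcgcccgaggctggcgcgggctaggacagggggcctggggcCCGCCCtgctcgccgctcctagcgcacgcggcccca

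RefSeq promoters were matched for 7 of the 9 genes, the 5 above with Ehd4 and Pacsin2. The GC box GGGCGG, bound by Sp1 family factors, occurred in 6 of these 7 windows, all but Cavin2, against 35.9% of 27025 promoters of the same length. Its matches in Cav2 begin at positions -9 and -4, counted from the start (the base before it is -1), and share a base. The CCAAT box, searched as CCAAT, occurred in 6 of 7, all but Cav1, against 38.0% of all promoters. Cavin2 stood apart in composition with 43.3% GC and 4 CpG, whereas the other 6 windows held 59.3% to 66.7% GC and 13 to 29 CpG. Medians over all promoters were 52.7% GC and 7 CpG.

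The motifs of 3 inducible factors each occurred in 1 of the 7 windows. The AP-1 motif TGANTCA occurred in Cav2 alone, at position -92, and in 7.92% of all promoters. The TEAD motif CATTCC occurred in Cavin1 alone, at position -247, against 14.7% of all promoters. The Cavin1 window follows the RefSeq start and lies wholly inside the gene span given above, which ends at 100970887. By that span this match is not upstream of the gene. The NRF2 motif TGACNNNGC occurred in Ehd4 alone, against 12.4%. The CArG box of SRF had 0 matches in the 7 windows, against 1.59% of all promoters. A match describes the letters of the window and says nothing of whether a factor was bound.

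Of the coat genes 6 were far lower in experimental than in control libraries, 1 was higher and 2 stood near the control level. Cav1, Cav2 and Ehd2 averaged 19.8%, 20.1% and 20.8% of their control means. Cavin2, Cavin1 and Cavin3 averaged 29.3%, 35.4% and 48.6%. Ehd1 averaged 171% of its control mean, Ehd4 93.0% and Pacsin2 105%. The fit across all genes, limma on log2(FPKM + 1) with a Benjamini-Hochberg adjusted p under 0.05, called 6 of the 9 lower, where 50.5% of all 11974 tested genes were called lower, and 1 higher, where 23.5% were called higher. The groups did not overlap for any of the 9: all 3 experimental libraries were lower than all 3 control libraries for 7 genes, as for 51.5% of all genes, and higher for 2, as for 24.7%. Nothing is read from these counts, since the genes were chosen with these values known.

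**Figure D1:**
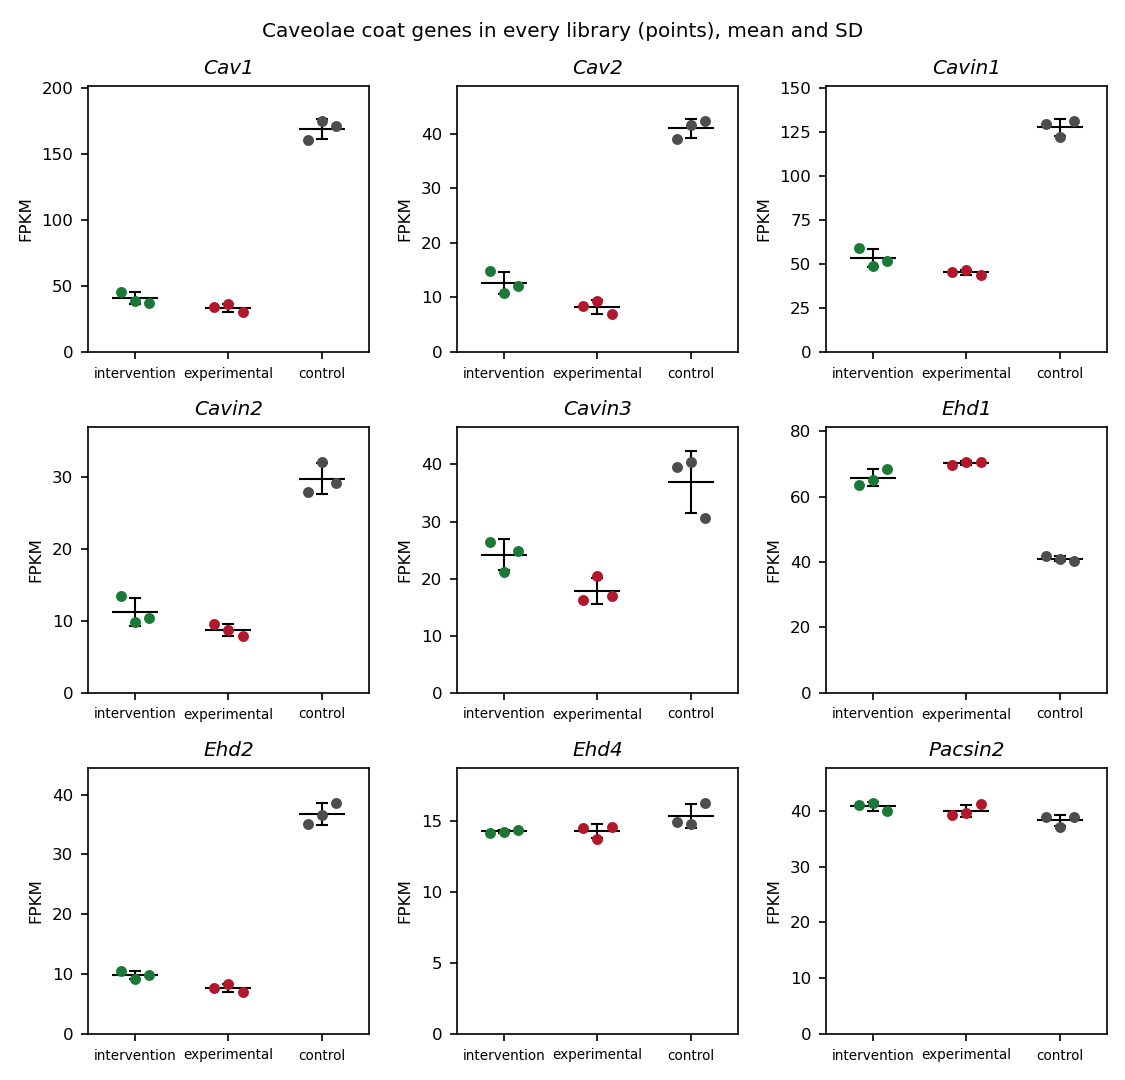
FPKM of the 9 coat genes in every library (points; linear axes from 0), with the mean and SD of each group of 3 libraries. Cav1, Cav2, the 3 cavins and Ehd2 are lowest in experimental libraries and highest in control libraries, Ehd1 runs the other way, and Ehd4 and Pacsin2 differ little between groups.

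Cav1 encodes caveolin-1, the main structural protein of caveolae outside striated muscle. Its level was 45.80, 38.59 and 37.45 FPKM in intervention libraries, 34.36, 36.19 and 30.02 FPKM in experimental libraries, and 160.91, 175.46 and 171.58 FPKM in control libraries. Every library of the first 2 groups lay far below every control library, and the intervention libraries all lay above the experimental ones. On the log2(FPKM + 1) scale the difference between group means was -2.31 (SE 0.09) for experimental minus control, 0.27 (SE 0.09) for intervention minus experimental and -2.04 (SE 0.09) for intervention minus control.

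Cav2 encodes caveolin-2, which needs caveolin-1 to reach the cell surface. It stood at 14.83, 10.83 and 12.11 FPKM in intervention libraries, 8.49, 9.35 and 6.89 FPKM in experimental libraries, and 39.11, 41.56 and 42.41 FPKM in control libraries. The 3 groups did not overlap. The differences on the log2 scale were -2.19 (SE 0.12) for experimental minus control and 0.55 (SE 0.12) for intervention minus experimental. The difference of 0.55 is the largest of the 9 genes between these groups, a ratio of mean FPKM of 1.53.

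The 2 caveolin genes kept nearly the same ratio in experimental and control libraries. Cav2 over Cav1 was 0.230 to 0.258 in experimental libraries and 0.237 to 0.247 in control libraries, which overlapped. In intervention libraries it was 0.281 to 0.324, above all libraries of the other 2 groups. Ehd2 over Cav1 moved as little, at 0.230 to 0.265 in intervention, 0.224 to 0.231 in experimental and 0.209 to 0.225 in control libraries. Cavin1 over Cav1, in contrast, was 1.27 to 1.38 in intervention and 1.28 to 1.46 in experimental libraries, against 0.696 to 0.803 in control libraries.

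**Figure D2:**
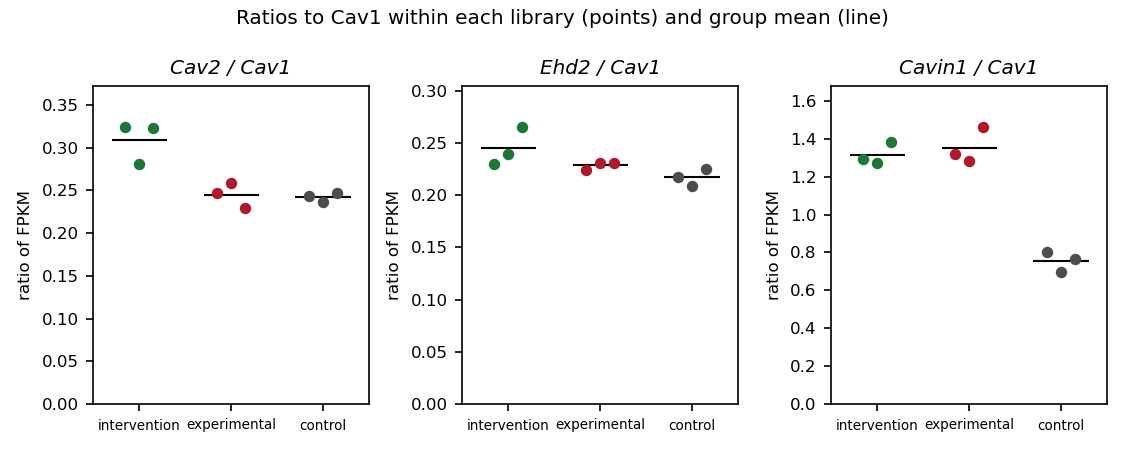
Ratios of FPKM within each library (points; axes from 0) with the group mean (line). Cav2 over Cav1 and Ehd2 over Cav1 lie within narrow ranges in experimental and control libraries, and Cavin1 over Cav1 lies between 1.27 and 1.46 in intervention and experimental libraries, above the control libraries.

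Cavin1 encodes the cavin that caveolae cannot form without. It had 59.18, 49.01 and 51.80 FPKM in intervention libraries, 45.30, 46.42 and 43.84 FPKM in experimental libraries, and 129.26, 122.20 and 131.32 FPKM in control libraries. The groups did not overlap, and the log2 difference was -1.48 (SE 0.07) for experimental minus control and 0.23 (SE 0.07) for intervention minus experimental.

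Cavin2, which helps to bend the membrane and draw in Cavin1, stood at 13.41, 9.89 and 10.37 FPKM in intervention libraries. It stood at 9.55, 8.70 and 7.93 FPKM in experimental libraries and at 27.91, 32.11 and 29.21 FPKM in control libraries. The control libraries were again far above the rest, while the lowest intervention library and the highest experimental library were only 0.34 FPKM apart. The log2 difference was -1.66 (SE 0.11) for experimental minus control and 0.32 (SE 0.11) for intervention minus experimental.

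Cavin3, a cavin known to bind protein kinase C delta, differed least of the 3 between experimental and control libraries and most between intervention and experimental libraries. It had 26.45, 21.20 and 24.91 FPKM in intervention libraries, 16.21, 20.52 and 17.02 FPKM in experimental libraries, and 39.62, 40.49 and 30.60 FPKM in control libraries. Its spread was the widest in the control group, where replicate 3 lay below the other 2, yet no group overlapped another. The log2 difference was -0.999 (SE 0.12) for experimental minus control, 0.41 (SE 0.12) for intervention minus experimental and -0.58 (SE 0.12) for intervention minus control.

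Together the 3 cavins summed to 80.1 to 99.0 FPKM in intervention, 68.8 to 75.6 FPKM in experimental and 191 to 197 FPKM in control libraries. Cavin1 held 59.5% to 61.2% of that sum in intervention libraries, 61.4% to 63.7% in experimental libraries and 62.7% to 68.7% in control libraries. The make-up of the cavins thus moved much less than their sum.

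Ehd2 encodes the EHD ATPase that sits at the caveolar neck and holds caveolae at the surface. Its level was 10.54, 9.24 and 9.92 FPKM in intervention libraries, 7.69, 8.36 and 6.94 FPKM in experimental libraries, and 35.03, 36.67 and 38.65 FPKM in control libraries. No groups overlapped. The log2 difference was -2.13 (SE 0.07) for experimental minus control and 0.33 (SE 0.07) for intervention minus experimental, so that the gene lay close to both caveolins.

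Ehd1 encodes a relative that works mainly at recycling endosomes, and it ran opposite to Ehd2. It had 63.43, 65.19 and 68.50 FPKM in intervention libraries, 69.57, 70.47 and 70.64 FPKM in experimental libraries, and 41.91, 40.86 and 40.31 FPKM in control libraries. All intervention libraries lay below all experimental ones, by a log2 difference of -0.10 (SE 0.04), and both groups lay above the controls. Experimental minus control was 0.76 (SE 0.04) on the log2 scale, and it was 0.71 to 1.003 under 3 other scalings of the libraries.

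Ehd4, an EHD of early endosomes, differed little. It stood at 14.18, 14.24 and 14.35 FPKM in intervention libraries, 14.52, 13.70 and 14.56 FPKM in experimental libraries, and 14.94, 14.79 and 16.28 FPKM in control libraries. Both groups lay just below the control libraries, by -0.10 (SE 0.05) in each case on the log2 scale. The sign depends on the scaling: experimental minus control was 0.13 after median-ratio scaling, 0.05 after quantile normalization and -0.17 after scaling to TPM, when the fit called Ehd4 lower in both comparisons with the control group.

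In FPKM as deposited, the EHD genes as a family kept their total while its make-up turned over. The total depends on the scaling and was not summed under others. After median-ratio scaling experimental minus control was 1.003 log2 units for Ehd1, 0.13 for Ehd4 and -1.90 for Ehd2. The 3 genes summed to 88.2 to 92.8 FPKM in intervention, 91.8 to 92.5 FPKM in experimental and 91.9 to 95.2 FPKM in control libraries, ranges that overlap. Ehd2 held 10.4% to 11.96% of the sum in intervention libraries and 7.53% to 9.03% in experimental libraries, against 38.1% to 40.6% in control libraries. Ehd1 held 72.0% to 73.8% in intervention libraries and 75.8% to 76.7% in experimental libraries, against 42.3% to 45.6% in control libraries.

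**Figure D3:**
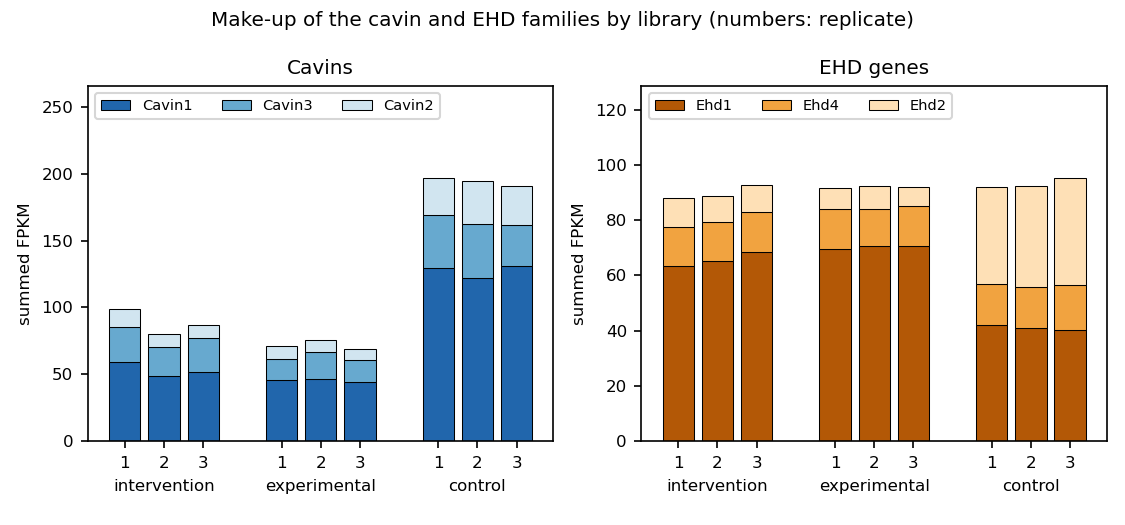
Stacked FPKM, as deposited, of the 3 cavins (left) and of Ehd1, Ehd4 and Ehd2 (right) in each library. Libraries are grouped as intervention, experimental and control, with the replicate number under each bar. The cavin sum is highest in control libraries with a similar make-up throughout, whereas the EHD sum stays between 88.2 and 95.2 FPKM while Ehd2 gives way to Ehd1 in intervention and experimental libraries.

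Pacsin2 encodes an F-BAR protein that curves the membrane at the caveolar neck. It had 41.02, 41.47 and 39.94 FPKM in intervention libraries, 39.25, 39.65 and 41.28 FPKM in experimental libraries, and 38.83, 37.07 and 38.94 FPKM in control libraries. Intervention and experimental libraries overlapped, and all of them lay just above the control libraries. The log2 difference was 0.06 (SE 0.04) for experimental minus control and 0.09 (SE 0.04) for intervention minus control. It grew to 0.30 and 0.22 after median-ratio scaling, when the fit called Pacsin2 higher, and shrank to 0.0009 and 0.01 after scaling to TPM.

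The order of levels within the coat changed with these differences. In control libraries Cav1 led at 169 ± 7.53 FPKM (SD, n = 3), followed by Cavin1 at 128 ± 4.78 FPKM, and the libraries of these 2 genes did not overlap. In experimental libraries Ehd1 led at 70.2 ± 0.575 FPKM, then Cavin1 at 45.2 ± 1.29 FPKM, Pacsin2 at 40.1 ± 1.08 FPKM and Cav1 at 33.5 ± 3.17 FPKM, all apart from their neighbours. Intervention libraries had the same first 4 genes in the same order, but Pacsin2 at 40.8 ± 0.786 FPKM and Cav1 at 40.6 ± 4.53 FPKM overlapped. At the low end, Ehd2, Cav2 and Cavin2 followed each other with overlapping libraries in both of these groups, and Ehd4 above them overlapped with Cav2 in intervention libraries and stood apart from Cavin2 in experimental libraries. In control libraries Cav2, Ehd1, Pacsin2, Cavin3 and Ehd2 lay between 36.8 and 41.0 FPKM on average. All 9 genes together summed to 260 to 289 FPKM in intervention, 239 to 253 FPKM in experimental and 528 to 541 FPKM in control libraries.

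**Figure D4:**
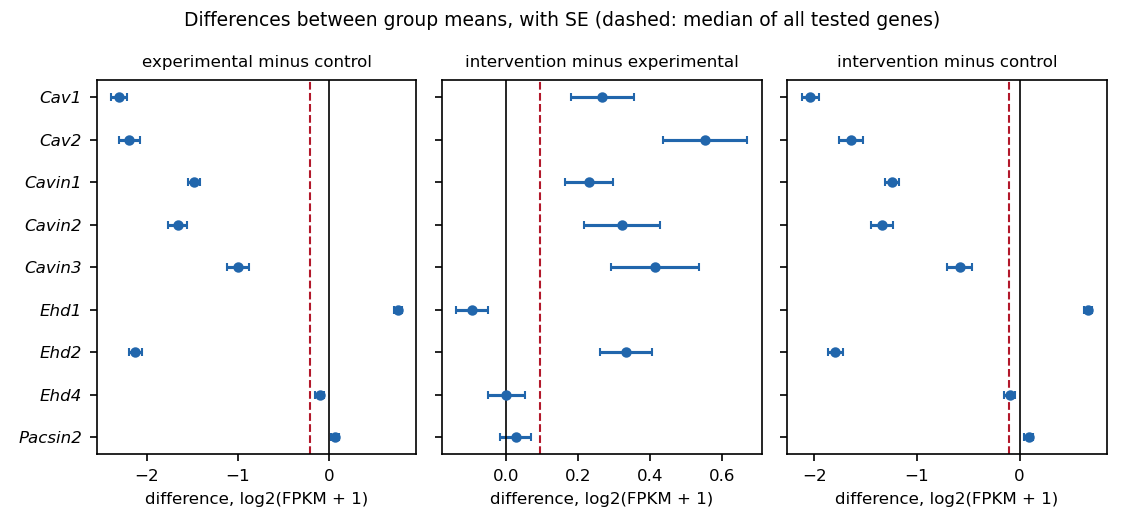
Differences between group means of log2(FPKM + 1) for the 9 coat genes with their SE, in 3 panels with separate axes; the dashed line is the median of all tested genes. Cav1, Cav2 and Ehd2 lie below -2 in the panel of experimental minus control, and Ehd1 lies on the other side of 0.

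Differences of single genes stand on a shift of all genes. The median of all tested genes was -0.21 log2 units for experimental minus control, 0.10 for intervention minus experimental and -0.10 for intervention minus control. Relative to that median, experimental minus control was -2.10 for Cav1, -1.99 for Cav2, -1.92 for Ehd2, -1.45 for Cavin2, -1.27 for Cavin1 and -0.79 for Cavin3. On the same footing Ehd1 was 0.97, Pacsin2 0.27 and Ehd4 0.11.

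The intervention group stood between the other 2 for 7 of the genes, nearer to the experimental group. Cav1, Cav2, the 3 cavins and Ehd2 each had all 3 intervention libraries above all 3 experimental libraries, where 33.7% of all genes did. Ehd1 alone was lower in that sense, where 8.8% of all genes were, and Ehd4 and Pacsin2 overlapped. For the 6 genes that were higher, intervention means were 1.18 to 1.53 times the experimental means and 24.0% to 65.5% of the control means. The fit called 4 of the 9 genes higher (Cav2, Cavin1, Cavin3 and Ehd2) and 0 lower, where 15.9% of all tested genes were called higher and 3.6% lower. The 4 became 0 without experimental replicate 1, without experimental replicate 3 or without intervention replicate 1, and 2 without intervention replicate 3 or control replicate 1. The share of all tested genes called, in either direction, fell in these fits too, from 19.5% with all libraries. In the same order it was 0.00835%, 0.0334%, 0.0501%, 7.84% and 14.4%. Against control, 6 of the 9 were called lower and 1 higher, where 41.1% and 24.1% of all tested genes were. By the libraries themselves 7 were lower and 2 higher with no overlap, where 42.9% and 25.8% of all genes were. The 3 comparisons share libraries in pairs, so they are not independent of each other.

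Within groups, several of the genes shared their highest or lowest library. The order of libraries was not counted over all genes, so this sharing is not shown to be particular to the coat genes. Intervention replicate 1 was the highest of its group for Cav1, Cav2, all 3 cavins and Ehd2, and the lowest for Ehd1 and Ehd4. Experimental replicate 2 was the highest for Cav1, Cav2, Cavin1, Cavin3 and Ehd2. Experimental replicate 3 was the lowest for Cav1, Cav2, Cavin1, Cavin2 and Ehd2 and the highest for Ehd1, Ehd4 and Pacsin2. Control replicate 3 was the highest for Cav2, Cavin1, Ehd2, Ehd4 and Pacsin2, and control replicate 1 was the lowest for Cav1, Cav2, Cavin2 and Ehd2.

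Genes with profiles most like Cav1 and Cavin1 were found by the root mean square distance between log2(FPKM + 1) values over the 9 libraries, each gene centred on its control mean. Among 6839 genes with a mean of at least 5 FPKM, nearest to Cav1 were Cd248 (0.11), which encodes the surface glycoprotein endosialin, Trp53inp2 (0.14), an autophagy regulator, and Adamts5 (0.15), a matrix protease. Ehd2 lay at 0.18 and Cav2 at 0.25, while Cavin1 lay at 0.67. The ranking rests on the pseudocount and on the filter by mean. The ratio of mean FPKM, experimental over control, was 0.150 for Cd248 and 0.145 for Adamts5, against 0.198 for Cav1, and the pseudocount shrinks the log2 differences of genes at such low levels. By this ratio Trp53inp2 (0.191), Cav2 (0.201) and Ehd2 (0.208) were closer to Cav1. Nearest to Cavin1 on the same measure were Selenon (0.06), which encodes a selenoprotein of the endoplasmic reticulum, Tbc1d9b (0.06), of the TBC family of Rab GTPase-activating proteins, and Gypc (0.07), a glycophorin. Cavin2 lay at 0.15 from Cavin1. Cd248 had 2.19 ± 0.197 FPKM in intervention, 1.93 ± 0.224 FPKM in experimental and 12.8 ± 0.466 FPKM in control libraries (SD, n = 3 each). Selenon had 7.90 ± 0.583, 6.53 ± 0.524 and 20.5 ± 0.674 FPKM in intervention, experimental and control libraries.

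Other genes of these families were scarce. Cavin4, the muscle cavin, had 0.21 to 0.34 FPKM in intervention, 0.42 to 0.63 FPKM in experimental and 0.22 to 0.33 FPKM in control libraries. Ehd3, another endosomal EHD, had 0.02 to 0.08, 0.02 to 0.06 and 0.16 to 0.18 FPKM in those groups. Pacsin1, the neuronal PACSIN, was at 0.15 FPKM or less in every library, and Cav3, the muscle caveolin, had no entry under that symbol. Pacsin3 alone passed the filter, and it fell in experimental libraries, at 5.26 ± 0.393 FPKM against 7.42 ± 0.360 FPKM in control libraries (SD, n = 3 each; limma adjusted p = 0.000472), with a level of 6.18 ± 0.605 FPKM in intervention libraries.

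Of 20 genes that act at caveolae or lipid rafts, 15 were tested. Of these, 4 rose and 8 fell in experimental against control libraries, where 23.5% of all tested genes were called higher and 50.5% lower. The list's median difference was -0.22 log2 units, against -0.21 for all genes. After median-ratio scaling the counts were 6 and 4, where 72.9% of all tested genes were called in either direction. The share in each direction is not given for that scaling, here or for the lists below. Flot2, a flotillin that scaffolds rafts, fell to 23.3 ± 2.06 FPKM in experimental libraries, against 62.2 ± 2.09 FPKM in control libraries (limma adjusted p = 3.81e-07). Tgfbr2, the type II TGF-beta receptor, fell to 6.21 ± 0.528 FPKM, against 15.4 ± 0.772 FPKM in control libraries (adjusted p = 4.84e-07), whereas the type I receptor Tgfbr1 rose to 9.03 ± 0.347 FPKM, against 5.60 ± 0.191 FPKM (adjusted p = 3.15e-06). Fyn, a Src family kinase, rose to 26.1 ± 1.42 FPKM, against 12.4 ± 0.136 FPKM in control libraries (adjusted p = 7.46e-07).

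Clathrin forms the coat of the other main route into the cell. Of 30 genes of the clathrin coat and its adaptors 28 were tested. In experimental against control libraries 5 rose and 16 fell, where 23.5% and 50.5% of all tested genes were called. The list's median difference was -0.32 log2 units. After median-ratio scaling the counts were 9 and 10, where 72.9% of all tested genes were called in either direction. Hip1, which links clathrin to actin, fell to 4.31 ± 0.234 FPKM in experimental libraries, against 10.9 ± 1.05 FPKM in control libraries (limma adjusted p = 7.61e-07). Dnm1, the neuronal dynamin that cuts vesicles free, fell to 9.58 ± 0.341 FPKM, against 21.2 ± 2.60 FPKM (adjusted p = 1.25e-06). The adaptor subunit Ap2a2 and the sorting nexin Snx9 fell by 0.69 and 0.71 log2 units.

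Partners of EHD proteins and of recycling endosomes formed another list. Of its 20 genes 19 were tested. In experimental against control libraries 5 rose and 9 fell, where 23.5% and 50.5% of all tested genes were called. The list's median difference was -0.14 log2 units. After median-ratio scaling the counts were 9 and 6, where 72.9% of all tested genes were called in either direction. Rab11fip2, a Rab11 effector, fell to 1.89 ± 0.195 FPKM in experimental libraries, against 4.65 ± 0.276 FPKM in control libraries, and Snx4, a sorting nexin of recycling, to 9.04 ± 0.0656 FPKM, against 15.8 ± 0.608 FPKM. Rab11b, a small GTPase of recycling endosomes, fell by 0.67 log2 units and Rab10, of the same superfamily, rose by 0.53 (limma adjusted p at most 2.84e-06 for these 4 genes).

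Among the other BAR domain genes, relatives of Pacsin2 in fold, 15 of 20 were tested. In experimental against control libraries 3 rose and 9 fell, where 23.5% and 50.5% of all tested genes were called. The list's median difference was -0.43 log2 units, against -0.21 for all genes. After median-ratio scaling the counts were 5 and 8, where 72.9% of all tested genes were called in either direction. The kinase gene Fer fell to 4.25 ± 0.494 FPKM in experimental libraries, against 13.0 ± 0.211 FPKM in control libraries, and Pstpip1, a cytoskeletal adaptor, to 1.11 ± 0.182 FPKM, against 4.69 ± 0.592 FPKM. Sh3glb2, an endophilin, fell by 1.02 log2 units, while Trip10, an F-BAR protein that binds Cdc42, rose to 34.6 ± 1.75 FPKM, against 19.1 ± 0.398 FPKM in control libraries (limma adjusted p at most 1.02e-06 for these 4 genes).

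**Figure D5:**
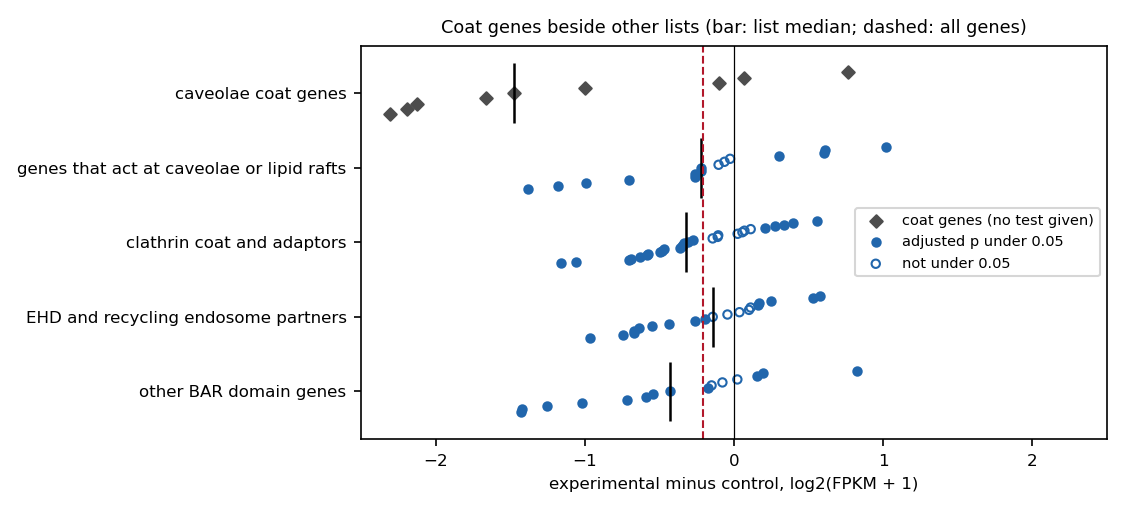
Experimental minus control difference of log2(FPKM + 1) for each gene of 5 lists that passed the filter (points), with the list median (bar) and the median of all genes (dashed). The coat genes spread from -2.31 to 0.76, and genes of the other 4 lists from -1.43 to 1.02.

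The same 4 lists were read between intervention and experimental libraries, where 15.9% of all tested genes were called higher and 3.6% lower. The raft list had 0 higher and 1 lower, the clathrin list 1 and 1, the recycling list 3 and 1 and the BAR list 2 and 1. Fyn was lower at 21.2 ± 2.08 FPKM in intervention libraries, against 26.1 ± 1.42 FPKM in experimental libraries (limma adjusted p = 0.0245). Picalm, a clathrin assembly protein, fell by 0.21 log2 units (adjusted p = 0.0245) and Numb, an endocytic adaptor, fell by 0.24 (adjusted p = 0.0228). The endocytic scaffold gene Eps15 rose by 0.22 (adjusted p = 0.0161), Rab8a, a GTPase of membrane recycling, by 0.30 (adjusted p = 0.0165), Fer by 0.34 (adjusted p = 0.0337) and Sh3glb2 by 0.23 (adjusted p = 0.0306). Median-ratio scaling ended the calls of Eps15, Fer and Sh3glb2 (adjusted p = 0.124, 0.086 and 0.132). The calls of all 7 named genes were lost without experimental replicate 1 (adjusted p 0.0662 to 0.0953), without experimental replicate 3 (0.0637 to 0.117) or without intervention replicate 1 (0.0612 to 0.113), 3 were lost without intervention replicate 3 and 1 without control replicate 1. Of all tested genes, 19.5% were called with all libraries. In these fits 0.00835%, 0.0334%, 0.0501%, 7.84% and 14.4% were called, in the same order, so the loss was not particular to the named genes. Against control libraries the 4 lists had 4 genes higher and 8 lower, 4 and 16, 4 and 7, and 2 and 10 in intervention libraries, in the same order, where 24.1% of all tested genes were called higher and 41.1% lower.

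The neuronal label was checked against marker genes. Of 13 neuronal markers 10 were under 1 FPKM in every library, Rbfox3, Map2 and Dcx among them, while Tubb3 and Syn1 were present. Tubb3 had 5.88 to 7.43 FPKM in intervention, 8.32 to 8.46 FPKM in experimental and 5.69 to 8.12 FPKM in control libraries (experimental minus control 0.23 log2 units, limma adjusted p = 0.0995). Syn1 had 2.51 to 3.02, 3.0 to 3.06 and 5.23 to 6.88 FPKM in those groups, and it fell by 0.80 log2 units in experimental against control libraries (adjusted p = 1.97e-05). Endothelial markers, all 8 with an entry, were under 1 FPKM in every library, as were all 6 of microglia and blood and all 5 of oligodendrocytes. Fibroblast markers were abundant and summed to 222 to 238 FPKM in intervention, 221 to 229 FPKM in experimental and 613 to 748 FPKM in control libraries. All 7 tested fell in experimental against control libraries (limma adjusted p at most 6.92e-06), where 50.5% of all tested genes were called lower. Lum alone was under 1 FPKM. Muscle markers summed to 1.53 to 1.87, 1.21 to 1.53 and 3.60 to 4.33 FPKM in the same groups. Astrocyte markers summed to 2.32 to 3.76, 2.56 to 2.91 and 5.79 to 6.74 FPKM. Of these, 4 of 6 muscle markers and 4 of 5 astrocyte markers were under 1 FPKM in every library. The sums rest mainly on Acta2 and Des for muscle and on Slc1a3 for astrocytes. Against control libraries the fibroblast, muscle and astrocyte sums and Syn1 were lower in both other groups, as were the caveolins and cavins. Tubb3 was not called, at 0.23 log2 units for experimental minus control and -0.03 for intervention minus control. Endothelial markers summed to 0.34 to 0.41 FPKM in intervention, 0.36 to 0.65 FPKM in experimental and 0.11 to 0.34 FPKM in control libraries. Between intervention and experimental libraries the fibroblast and astrocyte sums overlapped and the muscle sums met at 1.53 FPKM. Of the 7 tested fibroblast markers 1, Pdgfra, was called higher there and 0 lower, where 15.9% and 3.6% of all tested genes were. Syn1 differed by -0.07 log2 units in that comparison (limma adjusted p = 0.585). All libraries are labelled as HT-22 cells, so a marker expressed here does not show that its cell type was present. What these genes have to do with the differences of the coat genes was not tested. In bulk RNA, fewer cells that express a gene and less of its RNA per cell cannot be told apart.

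FPKM summed to 316912 to 339943 per library, and 11154 to 11732 entries reached 1 FPKM. The table holds no read numbers, so the depth of each library is unknown and precision comes only from the spread between libraries within groups. For each SE and p the fit pooled this spread over the 3 groups and moderated it with that of all tested genes.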

How the data were processed

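The authors deposited 1 table of FPKM with 29756 entries and 2 decimals. SMARTer mRNA-Seq libraries were built from RNeasy-purified RNA, per the labels' protocols. The submitters' processing notes name mm10. No aligner, counter, annotation or strand setting is given.

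FPKM was transformed to log2(FPKM + 1), which understates changes of low genes. Entries with at least 1 FPKM in at least 3 of the 9 libraries (11974) were fitted with limma 3.58.1 in R 4.3.3, with all 9 libraries in 1 fit, a mean-variance trend and no covariate, 2-sided. Each adjusted p is Benjamini-Hochberg over all tested genes of a comparison. A symbol with several entries kept the entry with the highest mean. FPKM gives no read number: among genes shorter than 200 nt, 16.1% of the 8039 nonzero values fell under 1 read of a 200 M read library. No count test was run. The fit was also run on simulated data with independent noise for each gene, and no result given here rests on that run. Positions came from GENCODE M21 on mm10 and promoters from RefSeq, GRCm38.p6.

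The members and lists were chosen with earlier results of these data known. All 9 members and 5 relatives are named. So are, of each other list, up to 4 called genes with the smallest adjusted p in experimental against control and 2 in intervention against experimental, and the 3 nearest profiles of Cav1 and of Cavin1. Alternatives were other pseudocounts, filters, scalings, fits with fewer libraries, no trend and a replicate block.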

Additional observations from a re-analysis of the deposited data

How the results depend on the processing

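Between the experimental and control groups and between the intervention and control groups, the 6 genes called lower and Ehd1, called higher, kept direction and call under all 18 alternatives, with Cav1 between -2.39 and -2.06 log2 units for experimental against control. Median-ratio scaling raised the count called higher to 2 in each of these comparisons, with Pacsin2 added. Scaling to TPM raised the count called lower to 7 in each, with Ehd4 added. For experimental against control, 72.9% of all tested genes were called in either direction with median-ratio scaling and 74.7% with scaling to TPM. For intervention against control these shares were 65.1% and 66.4%. Between intervention and experimental libraries the count called higher was 4 in the fit described and 0 with no filter on low values, 1 with median-ratio scaling, 1 with quantile normalization, 2 with no mean-variance trend and 2 with the replicate block. It ranged from 0 to 5 when single libraries were left out. Median-ratio scaling also gave 1 gene called lower, Ehd1. The share of all tested genes called in that comparison was 19.5%, against 1.22% with no filter, 12.6% with median-ratio scaling and 8.67% with quantile normalization. It was 17.6% with no mean-variance trend, 10.6% with the replicate block and 0.00835% to 21.5% when a library was left out. With no filter on low values it was 34.7% in place of 74.0% for experimental against control, and 27.7% in place of 65.3% for intervention against control. The causes of these moves were not tested.

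Replicate numbers in the labels are not stated to mark a shared culture or day. Deviations of same-numbered libraries from their group means correlated between -0.19 and 0.11 over genes, so the numbers were not treated as pairs, and the replicate block is given as an alternative only. With it, 6 coat genes were lower and 1 higher in each comparison with the control group, as without it. Of all tested genes 72.9% were then called in either direction for experimental against control, and 63.3% for intervention against control.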
